A study of Homo sapiens with 2 samples.

Results

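Innate sensing of nucleic acids and the response to interferon were described through 42 human genes for sensors, adaptors, kinases, transcription factors and interferon receptors. The genes were taken from a fixed list of symbols, and all 42 matched 1 Ensembl gene each among the 60683 in the deposited count table. The RNA was total RNA of HEK293T, a kidney line of human embryonic origin that expresses SV40 large T antigen, in which shRNAs had been used to make stable FKBP5 knockdown cells. Both samples, sample 1 and sample 2, carry this genotype and are the only group, with n = 2. How many shRNAs, clones or cultures they stand for is not stated by the labels. Scramble control cells were not analysed here, so no value below is an effect of the knockdown.

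Cells detect foreign or misplaced nucleic acid with receptors that sit at the cell surface, in endosomes or in the cytosol. Each class signals through its own adaptor: MYD88 or TICAM1 for Toll-like receptors, MAVS for the cytosolic RNA sensors RIGI and IFIH1, and STING1 for the DNA sensor CGAS. TICAM1, MAVS and STING1 converge on the kinases TBK1 and IKBKE, which phosphorylate interferon regulatory factors and switch on interferon genes. Secreted type I interferon binds IFNAR1 and IFNAR2, and the kinases JAK1 and TYK2 then activate STAT proteins, of which STAT2 joins IRF9. HEK293 lines are widely used as hosts for introduced Toll-like receptors and other sensors.

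Library totals were 9997706 counts in sample 1 and 21284648 in sample 2. FKBP5, the knockdown target, had 41 and 77 counts in them. Pairs of values are given throughout for sample 1 and then sample 2. Levels within a gene are the deposited CPM, counts scaled to a common library size, with 95% exact Poisson intervals that cover counting error only. Levels between genes are compared as TPM, the same kind of scaling after division by the summed exon length of each gene in GENCODE 29, computed here from the counts. A floor of 3 counts corresponds to 0.289 CPM in sample 1 and 0.137 CPM in sample 2. Of 10 genes known from HEK293 lines, all had a mean of at least 1 CPM, among them NEFL (297 CPM) and VIM (128 CPM). Of 20 markers of blood and immune cells, 6 had at least 1 CPM, and the summed level of all 20 was 38.3 and 39.8 CPM. CORO1A made the largest part of this sum, with 19.3 and 16.7 CPM. No read was counted for CD68 or FCGR3A, and the pan-leukocyte marker PTPRC had 1 and 10 counts. The part of these markers in the levels below was not tested.

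A split by role ran through the 42 genes. Of the 22 sensors, 8 had a mean of at least 1 CPM (36.4%). Of the 14 adaptors, ubiquitin ligases, kinases, interferon regulatory factors and the chaperone UNC93B1, which relay or enable the signal, 13 did (92.9%), and so did 5 of the 6 genes on the side of the interferon receptor (83.3%). Together 26 of 42 genes, or 61.9%, had at least 1 CPM, and 66.5% of 19910 protein-coding genes did. In bulk RNA, a gene at a low level in all cells and one expressed in few cells cannot be told apart. The total lay close to that of all protein-coding genes, while the sensors lay below it and the relay genes above it. The sensor classes differed: 1 of 10 Toll-like receptors, 1 of 4 DNA sensors, 2 of 4 NOD-like receptors and 4 of 4 cytosolic RNA sensors had at least 1 CPM. The median over the 42 genes was 2.65 CPM, beside 10.2 CPM over all protein-coding genes, and 3 of them (TLR4, TLR8 and TLR10) were at 0 in both libraries.

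**Figure D1:**
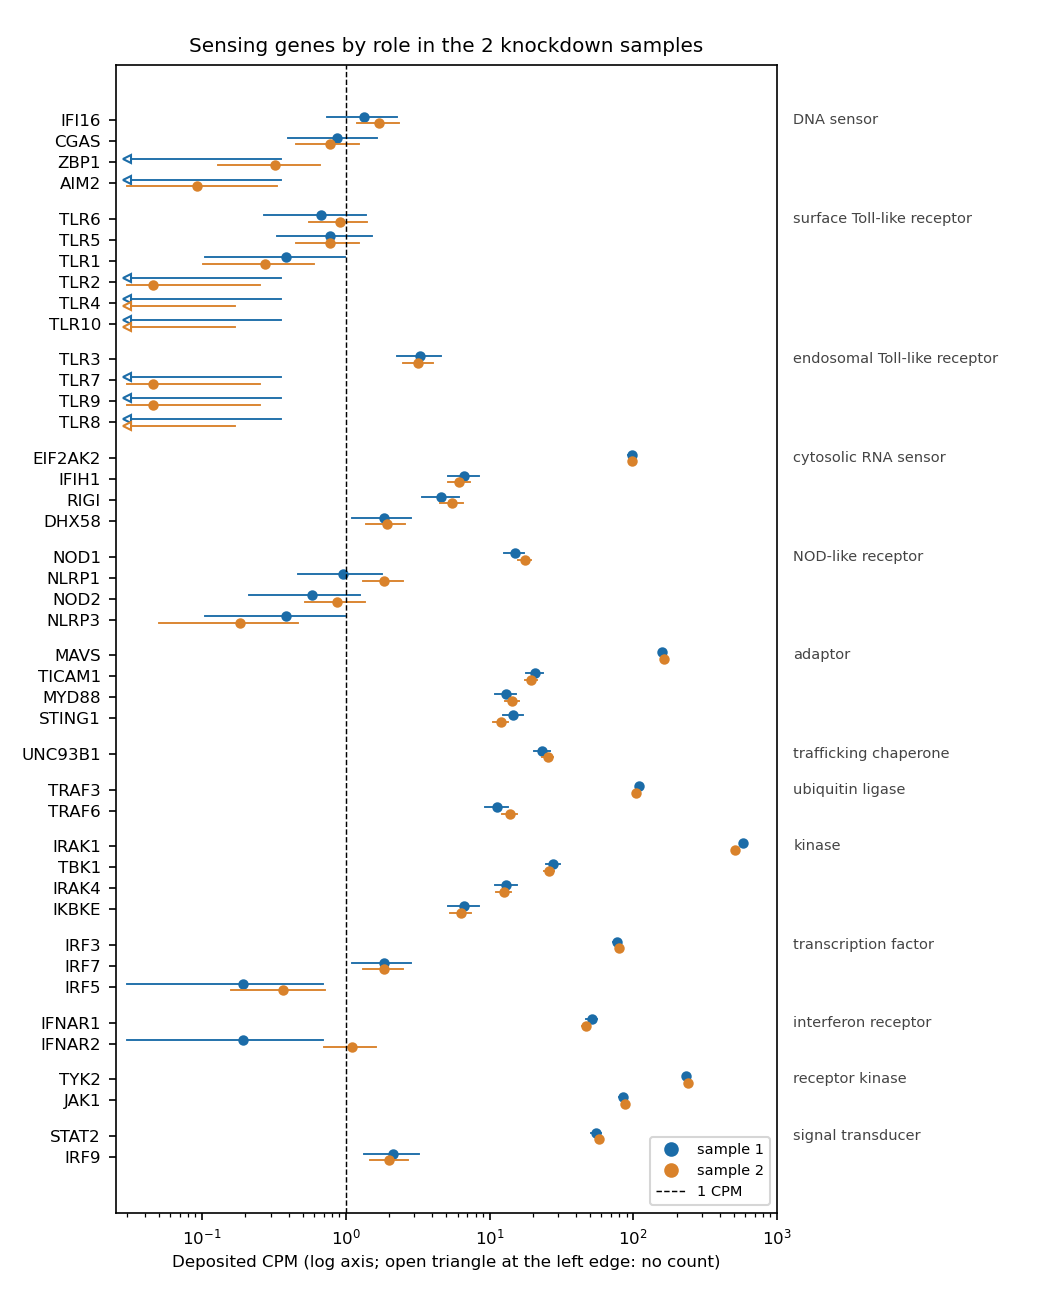
Deposited CPM (log axis) of the 42 genes in each sample, ordered by role and, within a role, by mean CPM. Points are the 2 samples, lines are 95% exact Poisson intervals cut off at the left edge, open triangles are samples with no count, and the dashed line is 1 CPM. Most sensors other than those of cytosolic RNA lie left of the line, and the relay genes other than IRF5 lie right of it.

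Sequence around the start sites was read from RefSeq promoter windows (GRCh38.p14), which run from 250 bases before to 50 bases after a start. A window was found for 30 of the 42 genes. CGAS, STING1, TLR1, TLR7, TLR10, DHX58, IRF3, IRF7, NLRP1, ZBP1, UNC93B1 and IFNAR2 had none in the table. A pair is shown first, because it stands at the ends of the range of level: IRAK1 had the highest CPM of all 42 genes, and TLR8 had no count. It does not mark the ends of CpG content. Capitals mark each CpG, and both are written 5′ to 3′ on the strand of the gene, up to 10 bases past the start.
IRAK1 (chrX:154019893-154020152, minus strand): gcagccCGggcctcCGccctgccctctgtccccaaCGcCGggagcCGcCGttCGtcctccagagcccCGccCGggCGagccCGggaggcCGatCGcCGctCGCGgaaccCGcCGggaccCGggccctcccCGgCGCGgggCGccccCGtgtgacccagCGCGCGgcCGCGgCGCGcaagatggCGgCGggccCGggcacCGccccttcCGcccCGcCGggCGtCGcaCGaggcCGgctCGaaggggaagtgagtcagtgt
TLR8 (chrX:12906370-12906629, plus strand): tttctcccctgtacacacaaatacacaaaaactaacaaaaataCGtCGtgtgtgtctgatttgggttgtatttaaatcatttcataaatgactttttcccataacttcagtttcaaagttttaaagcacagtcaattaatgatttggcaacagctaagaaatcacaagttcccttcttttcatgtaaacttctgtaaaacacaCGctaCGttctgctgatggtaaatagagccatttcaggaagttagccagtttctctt
The printed stretch of 260 bases holds 43 CpG for IRAK1 and 4 for TLR8.

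The promoter CpG ratio (the number of CpG observed over that expected from the C and G content) separated the genes in the same direction. Its median was 0.795 over the 20 genes with at least 1 CPM and 0.483 over the 10 below, with a gene's windows summarised by their median. Over 15301 protein-coding genes with a window, the medians were 0.823 above 1 CPM and 0.310 below it. A ratio of at least 0.6 was found in 16 of the 20 and in 2 of the 10, TLR2 and TLR5. The corresponding shares over all protein-coding genes were 81.4% and 26.5%. The 4 genes above 1 CPM with a lower ratio were IFI16 (0.156), IKBKE (0.220), IRF9 (0.265) and TLR3 (0.418). This is a description of the reference sequence beside the level, and the pattern was shared with protein-coding genes in general.

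**Figure D2:**
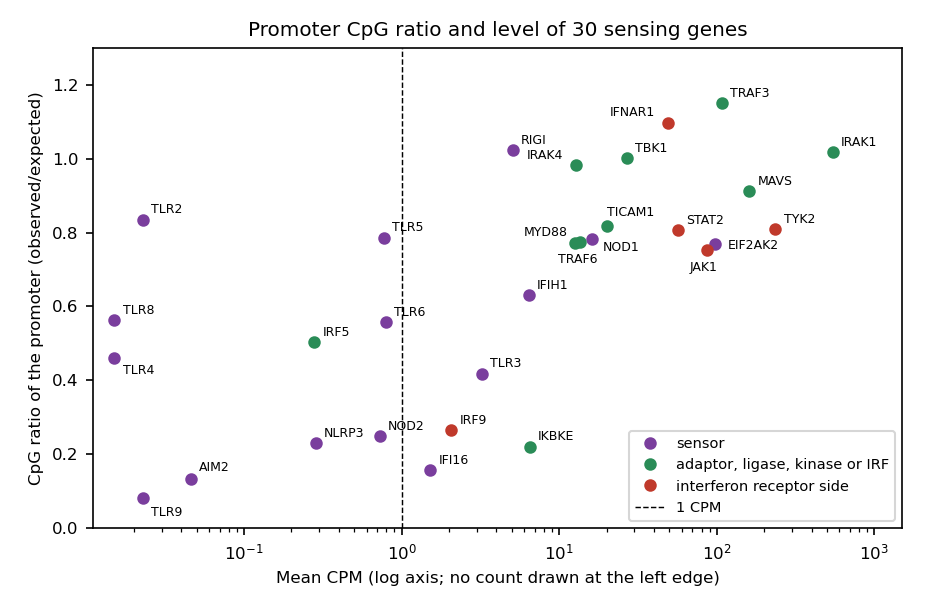
Promoter CpG ratio (observed over expected) against mean CPM (log axis) for the 30 genes with a RefSeq window. Each point is a gene, coloured by role, and the dashed line is 1 CPM. TLR2 (0.835) is the gene below 1 CPM with the highest ratio, and IFI16 (0.156) the gene above 1 CPM with the lowest.

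Several of these genes are themselves induced by interferon, so the windows were searched for the core of the interferon-stimulated response element, GAAA, any 2 bases and GAAA again, on both strands (TTTC, 2 bases and TTTC on the other). Of the 30 genes, 5 held a match (16.7%): EIF2AK2, IFIH1, MYD88, TLR3 and AIM2. One was found in 3.57% of all 35116 windows and in 4.20% of protein-coding genes. A set of 3 is shown with the match in capitals, because the same pattern of 10 bases lies at or before the start of genes whose levels ran from 97.5 CPM to 0.0458 CPM.
EIF2AK2 (chr2:37156971-37157230, minus strand): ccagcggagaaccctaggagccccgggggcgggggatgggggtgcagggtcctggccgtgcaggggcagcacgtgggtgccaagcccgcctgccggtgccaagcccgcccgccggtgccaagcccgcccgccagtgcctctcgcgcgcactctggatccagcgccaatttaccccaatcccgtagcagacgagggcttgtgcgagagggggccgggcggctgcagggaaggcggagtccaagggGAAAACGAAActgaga
TLR3 (chr4:186068906-186069165, plus strand): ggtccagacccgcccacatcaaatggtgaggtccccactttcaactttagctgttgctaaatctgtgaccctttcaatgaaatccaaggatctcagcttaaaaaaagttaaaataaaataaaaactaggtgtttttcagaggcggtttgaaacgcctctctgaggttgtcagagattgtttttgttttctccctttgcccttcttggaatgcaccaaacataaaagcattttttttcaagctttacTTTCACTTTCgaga
AIM2 (chr1:159076757-159077016, minus strand): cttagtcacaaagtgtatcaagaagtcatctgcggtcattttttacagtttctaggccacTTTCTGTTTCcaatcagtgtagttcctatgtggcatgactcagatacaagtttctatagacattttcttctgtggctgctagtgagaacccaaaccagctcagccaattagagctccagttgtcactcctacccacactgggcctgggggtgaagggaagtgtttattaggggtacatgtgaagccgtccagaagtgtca
Counted from +1 at the start site, with no position 0, the match lies from -6 to 4 in EIF2AK2, from -4 to 6 in TLR3 and from -190 to -181 in AIM2. MYD88 has it from -61 to -52. IFIH1 holds 3 matches, from -159 to -150, from -153 to -144 and from -21 to -12, the first and second of which overlap. A match is a run of letters and was not tested as a binding site.

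Among the Toll-like receptors only TLR3 reached 1 CPM. TLR3 (chromosome 4, 186069152 to 186088069, plus strand, GRCh38) recognises double-stranded RNA in endosomes. It had 34 and 70 counts, or 3.28 CPM (2.27 to 4.58) and 3.2 CPM (2.50 to 4.05), a mean of 3.24 ± 0.0522 CPM (SD, n = 2). The intervals of the samples overlapped nearly whole, and no difference was detectable at this depth (adjusted p = 1, exact binomial test between the libraries).

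TLR5, the receptor of bacterial flagellin, had 8 and 17 counts (0.771 and 0.778 CPM). TLR6 and TLR1, which pair with TLR2 to bind lipopeptides, had 7 and 20 counts (0.675 and 0.915 CPM) and 4 and 6 counts (0.386 and 0.275 CPM). TLR2 itself had 0 and 1 count, so its intervals reached 0.356 and 0.255 CPM. The common partner was thus at the floor while TLR1 and TLR6 were counted in both samples. TLR1 and TLR6 are neighbours on chromosome 4 and share sequence: 94.7% and 94.9% of the 50-base stretches of their transcripts occur in no other gene.

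TLR4, which binds lipopolysaccharide, and TLR10 were at 0 in both libraries. In endosomes, the single-stranded RNA receptors TLR7 and TLR8 had 0 and 1 count and no count, and the DNA receptor TLR9 had 0 and 1 count. A count of 0 gave a 95% exact Poisson interval up to 0.356 CPM in sample 1 and 0.169 CPM in sample 2. In GENCODE 29, a gene annotated on the strand of TLR9 covers 86.3% of the TLR9 exons, and reads there could have been assigned to either gene or to none. UNC93B1, the chaperone that carries endosomal Toll-like receptors out of the endoplasmic reticulum, was present at 23.3 and 25.3 CPM, although 88.2% of its 50-base stretches are unique and pseudogene copies share the rest.

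Of the adaptors below the Toll-like receptors, TICAM1 and MYD88 were both expressed. Other adaptors differed: TIRAP had 38 and 71 counts (3.66 and 3.25 CPM), and TICAM2 had 1 and 5 counts (0.0964 and 0.229 CPM). TICAM2 was thus below 1 CPM in both samples. TIRAP and TICAM2 are from a list of other pathway genes and were named after their values were seen. TICAM1, the adaptor of TLR3, had 215 and 426 counts (20.7 and 19.5 CPM), and MYD88, the adaptor of most others, had 135 and 312 counts (13.0 and 14.3 CPM). Per length, TICAM1 stood at 28.4 and 26.0 TPM, 15.9 and 15.3 times TLR3. It was 2.37 and 2.04 times MYD88. The kinase that starts the MYD88 cascade, IRAK4, had 8.54 and 8.0 TPM, below MYD88 at 12 and 12.8 TPM in both samples. The ubiquitin ligase TRAF6 had 8.49 and 10.1 TPM.

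IRAK1, the kinase that IRAK4 phosphorylates, stood far above the rest. IRAK1 (chromosome X, 154010500 to 154019980, minus strand) had 6019 and 11083 counts, or 580 CPM (566 to 595) and 507 CPM (498 to 517). Its TPM of 532 and 452 exceeded IRAK4 by 62.3 and 56.5 times, and 99.2% of protein-coding genes lay below its mean of 492 ± 56.1 TPM (SD, n = 2). The next of the 42 genes, TYK2, had 125 ± 0.518 TPM. TRAF3, the ubiquitin ligase that routes signals towards TBK1, had 48.9 and 45.4 TPM, 5.76 and 4.50 times TRAF6.

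All 4 genes of cytosolic RNA sensing were expressed, over a wide range. The kinase EIF2AK2 (PKR), which halts translation on binding double-stranded RNA, was highest with 1011 and 2132 counts (97.4 and 97.6 CPM). It lies on chromosome 2, 37099210 to 37157065, minus strand, and its mean was 97.5 ± 0.0814 CPM (SD, n = 2). IFIH1 (MDA5), which binds long double-stranded RNA, had 69 and 135 counts (6.65 and 6.18 CPM). RIGI, which binds RNA with 5′-triphosphate ends, had 48 and 120 counts (4.63 and 5.49 CPM). DHX58 (LGP2), a relative of both that lacks signalling domains, had 19 and 42 counts (1.83 and 1.92 CPM).

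Per length of summed exons, IFIH1 and RIGI could not be ordered. IFIH1 had 4.77 and 4.31 TPM and RIGI 3.90 and 4.50 TPM, so the ranges of the samples overlapped. DHX58, at 1.75 and 1.78 TPM, lay below both in both samples. EIF2AK2 was 8.53 and 7.19 times RIGI. With the longest transcript in place of all exons, IFIH1 had a mean of 4.90 TPM and RIGI 3.19 TPM. The distance between IFIH1 and RIGI thus depends on the length used.

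MAVS, the mitochondrial adaptor of RIGI and IFIH1, was abundant, with 1638 and 3581 counts or 158 and 164 CPM. At 49.2 and 49.7 TPM it was 12.6 and 11 times RIGI. With the length of the longest transcript in place of all exons, MAVS had a mean of 37.7 TPM and moved from rank 4 to rank 7 of the 42, since its exons sum to 11771 bases.

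DNA sensors were the lowest class after the Toll-like receptors, while their adaptor was expressed. CGAS (chromosome 6, 73413515 to 73452276, minus strand), the enzyme that makes cyclic GMP-AMP on binding DNA, had 9 and 17 counts. These were 0.867 CPM (0.397 to 1.65) and 0.778 CPM (0.453 to 1.25), above the floor in both samples. IFI16 had 14 and 37 counts (1.35 and 1.69 CPM). AIM2, which builds an inflammasome on DNA, had 0 and 2 counts, and ZBP1, which senses Z-form nucleic acid, 0 and 7 counts. Only IFI16 of the 4 therefore passed 1 CPM, and the intervals of CGAS include 1 CPM in both samples.

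STING1 (chromosome 5, 139475534 to 139482935, minus strand), the receptor of cyclic GMP-AMP, had 152 and 261 counts. This was 14.6 CPM (12.4 to 17.2) and 11.9 CPM (10.5 to 13.5), with a log2 ratio of -0.27 that did not pass the test (adjusted p = 0.244, exact binomial test with Benjamini-Hochberg adjustment). Per length, STING1 at 14.0 and 11.1 TPM was 18.2 and 16.6 times CGAS. MAVS exceeded STING1 by 3.52 and 4.49 times.

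NOD1, which recognises bacterial peptidoglycan, was the NOD-like receptor with the highest level, at 155 and 384 counts (14.9 and 17.6 CPM). NOD2, its close relative, had 6 and 19 counts (0.578 and 0.869 CPM), and NOD1 was 26.0 and 20.4 times NOD2 per length. The inflammasome sensors NLRP1 and NLRP3 had 10 and 40 counts (0.964 and 1.83 CPM) and 4 and 4 counts (0.386 and 0.183 CPM). NLRP1 was thus below 1 CPM in sample 1 and above it in sample 2, and its log2 ratio of 0.53 did not pass the test (adjusted p = 0.315, exact binomial test). It was the largest log2 ratio in size among the 26 genes tested.

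The kinases and factors that switch on interferon genes were present with 1 exception. TBK1 had 287 and 565 counts (27.7 and 25.9 CPM) and IKBKE, its relative with a more restricted expression, 69 and 138 counts (6.65 and 6.31 CPM). Per length TBK1 was 3.31 and 3.26 times IKBKE. IRF3, the factor that TBK1 activates first, had 799 and 1729 counts (77.0 and 79.1 CPM). IRF7, which amplifies the interferon response, had 19 and 40 counts (1.83 and 1.83 CPM), and IRF3 was 29.1 and 29.9 times IRF7 per length. IRF5, known mainly from myeloid and B cells, had 2 and 8 counts (0.193 and 0.366 CPM).

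The IFNAR2, IRF3, TBK1 and NOD1 exons overlap genes on the other strand, over 39.1%, 19.4%, 14.7% and 10.9% of their bases. The libraries are directional per the labels. The strand setting of the counting is not given there, so reads of such partners cannot be told apart from these levels.

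The receptor side of the pathway was led by its kinases. TYK2 had 2397 and 5219 counts (231 and 239 CPM) and JAK1 882 and 1905 counts (85.0 and 87.2 CPM). Per length TYK2 was 2.53 and 2.56 times JAK1. STAT2 had 574 and 1264 counts (55.3 and 57.8 CPM) and the receptor chain IFNAR1 534 and 1017 counts (51.5 and 46.5 CPM). The ratio of sample 2 to sample 1 ran from 0.904 for IFNAR1 to 1.05 for STAT2 among these 4 genes, and none was separated by the test.

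IFNAR2 and IRF9 lay far below their partners. IFNAR2 (chromosome 21, 33229901 to 33265675, plus strand), the chain that binds interferon with the higher affinity, had 2 and 24 counts. Its level was 0.193 CPM (0.0233 to 0.696) and 1.10 CPM (0.704 to 1.63), a ratio of 5.70 with a counting interval of 1.41 to 49.7. With no filter on low genes its adjusted p was 0.178 (unadjusted p = 0.00711, exact binomial test), so the 2 libraries were not separated. IRF9 (chromosome 14, 24161053 to 24166565, plus strand), the DNA-binding partner of STAT2, had 22 and 44 counts, and STAT2 was 16.2 and 17.8 times IRF9 per length.

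Both genes share exons with a readthrough gene on the same strand in GENCODE 29, over 44.2% of the exonic bases of IFNAR2 and 48.4% of those of IRF9. The readthrough of IFNAR2 and IL10RB had no count, and IL10RB itself had 11 and 23 counts. The transcript that joins IRF9 and its neighbour RNF31 had 15 and 31 counts, and RNF31 8 and 14. Over all protein-coding genes, 17.8% of the 1040 with such an overlap of at least 40% had 1 CPM, beside 69.0% of the 17535 with less than 5%. The part of overlapping annotation in the low counts of IFNAR2, IRF9 and TLR9 was not tested. Without these 3, 25 of 39 genes had at least 1 CPM.

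**Figure D3:**
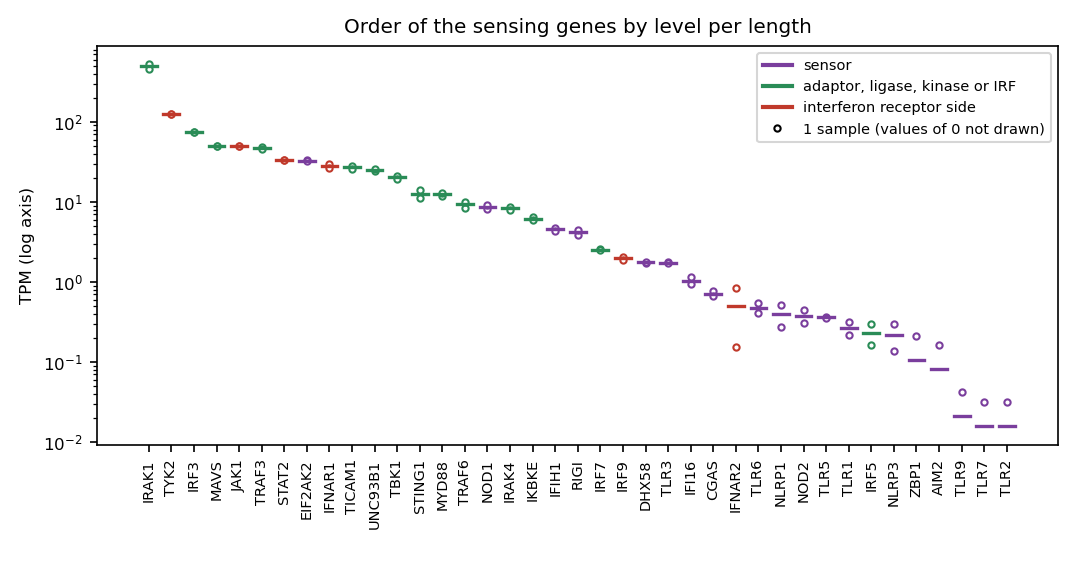
TPM (log axis) of the 39 genes with a count, in order of their mean. Short lines are means and open circles the 2 samples, with values of 0 not drawn, and colours give the role. IRAK1 stands at 492 TPM, above TYK2 at 125 TPM, and the right end of the order holds sensors together with IRF5 and IFNAR2.

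In the order per length, the first 10 genes were IRAK1, TYK2, IRF3, MAVS, JAK1, TRAF3, STAT2, EIF2AK2, IFNAR1 and TICAM1, of which EIF2AK2 is the single sensor. Of 41 pairs of neighbours in the order, 23 had overlapping sample values, among them MAVS and JAK1, STAT2 and EIF2AK2, IFNAR1 and TICAM1, and STING1 and MYD88. From CGAS downwards every pair but TLR5 and TLR1 overlapped, so the low end gives no order. With the longest transcript as the length, 8 of the 10 stayed in the first 10. On that length, the mean was 47.4 TPM for STAT2 and 26.7 TPM for EIF2AK2, and 37.7 TPM for MAVS and 46.9 TPM for JAK1. IFNAR1 and TICAM1 had 21.9 and 20.7 TPM, and STING1 and MYD88 11.4 and 11.3 TPM. The distance between neighbours thus depends on the length as well as on the samples.

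Between the 2 knockdown samples, 26 of the 42 genes were tested, and 1 of them, IRAK1, was separated by the exact binomial test (3.85%). Over all 15530 genes tested, 8.71% were, 4.42% lower and 4.29% higher in sample 2. The count among the sensing genes was thus no larger than the background. IRAK1 fell by 0.19 on the log2 scale of CPM + 1 from 580 to 507 CPM in sample 2, a ratio of 0.874 (adjusted p = 3.02e-14, exact binomial test, 2-sided). Under 5 other settings of the scaling, filter and test its adjusted p ran from 1.10e-16 to 9.18e-14. The test compares 2 libraries, knows no variation between cultures, and reaches small differences only in abundant genes.

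The median log2 ratio over the 26 genes was 0.02, beside 0.01 over all genes tested. In size the median was 0.08, beside 0.11 over all. All 26 genes were within 1.5-fold in CPM + 1, as were 15263 of the 15530. Adding 1 CPM shrinks the ratios of genes near 1 CPM, and the plain CPM ratio of NLRP1 was 1.90. The log2 ratios of the 26 genes fell on both sides, 14 above 0 and 12 below.

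**Figure D4:**
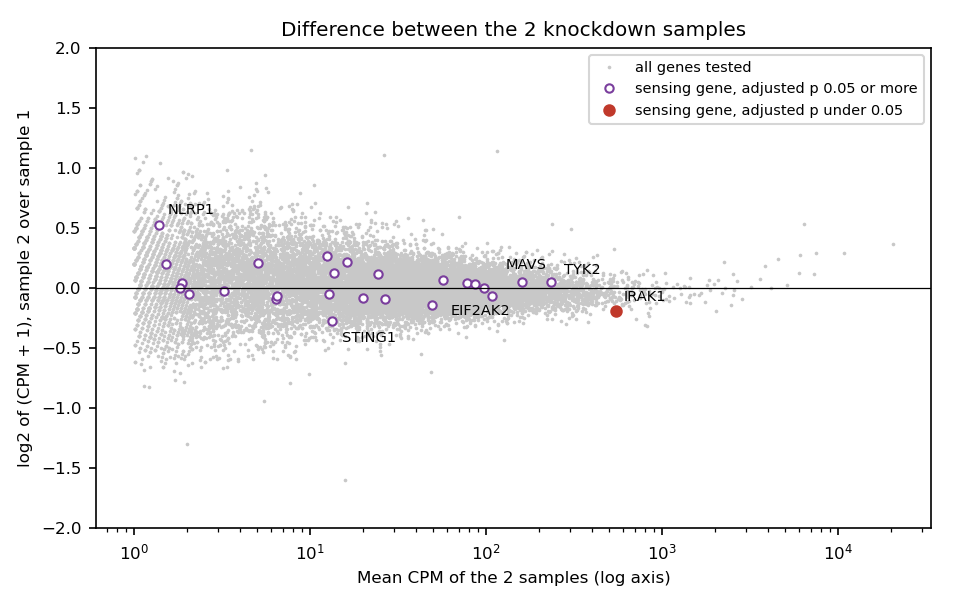
Log2 ratio of CPM + 1, sample 2 over sample 1, against mean CPM (log axis) for all 15530 genes tested (grey) and the 26 sensing genes among them (circles). The filled circle is IRAK1, the sensing gene with an adjusted p under 0.05. The other 25 lie within the grey cloud around 0.

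The other genes of the pathway, in 6 lists, were counted in the same way. None of 21 interferon genes reached 1 CPM, and 13 were at 0 in both libraries. IFNB1 had none. IFNL1, IFNL2 and IFNL3, the type III interferons, were highest with 1 and 2, 0 and 4, and 0 and 3 counts, and no interferon gene had 3 counts in both samples. Transcripts of this list were thus not detectable above the floor in both samples at this depth.

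Of 48 effector genes that interferon induces, 30 had at least 1 CPM (62.5%, beside 66.5% of protein-coding genes). The median over the 48 was 2.22 CPM, beside 10.2 CPM over all protein-coding genes. The 18 below 1 CPM include OAS1 (4 and 8 counts), MX1 (4 and 13) and RSAD2 (0 and 1), named after their values were seen. LGALS3BP, a secreted glycoprotein, had 689 and 670 CPM, LY6E 189 and 181 CPM, and USP18, a protease that restrains IFNAR signalling, 36.4 and 33.1 CPM. Of the 30, 2 were separated (6.67%, beside 8.71% of all genes tested): 1 was higher in sample 2 (DTX3L, 11.9 and 16 CPM) and 1 lower (IFITM3, 9.45 and 6.04 CPM), both named after their values were seen.

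All 18 genes in the list of other interferon receptors and signal transducers had at least 1 CPM, beside 66.5% of protein-coding genes. The list also holds regulators that are neither receptors nor transducers. Such regulators led the list: the phosphatase genes PTPN11 (207 and 210 CPM) and PTPN1 (98.8 and 89.0 CPM) and the SUMO ligase gene PIAS4 (88.0 and 81.3 CPM). The interferon-gamma receptor chain IFNGR1 was the 1 separated gene, lower in sample 2 at 41.4 and 34.0 CPM, and was named after its values were seen. That is 5.56% of the list, beside 8.71% of all genes tested in either direction.

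Of 32 downstream kinases, ubiquitin ligases and transcription factors, 30 had at least 1 CPM. TAB2, a ubiquitin-binding subunit of the TAK1 kinase complex, had 136 and 134 CPM, and IRF2BP2, a corepressor, 108 and 119 CPM. Of the 30, 3 were separated (10%, beside 8.71% of all genes tested in either direction). All 3 were lower in sample 2, as were 4.42% of all genes tested. They include UBE2N (118 and 103 CPM) and TRAF2 (66.5 and 57.3 CPM), both named after their values were seen. IRF1, itself induced by interferon, had 56 and 89 counts (5.40 and 4.07 CPM).

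Among 38 other sensors, cofactors and enzymes that guard against self nucleic acid, 33 had at least 1 CPM, with a median of 52.9 CPM. Many of them also serve DNA repair or RNA metabolism in every cell. PRKDC had 592 and 612 CPM, HSP90B1, which folds Toll-like receptors, 526 and 513 CPM, and XRCC6 533 and 505 CPM. In this list 6 of 33 were separated, XRCC6 among them (18.2%, beside 8.71% of all genes tested in either direction). All 6 were lower in sample 2, as were 4.42% of all genes tested. The test reaches small differences only in abundant genes, and the part of abundance in this share was not tested. TREX1, the exonuclease that removes cytosolic DNA, was listed with no count, but 100% of its exonic bases lie in exons of ATRIP, so its level cannot be read.

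The inflammasome and NOD partners were the list with the lowest share apart from the interferons, 10 of 25 (40%). DPP9, a protease that holds NLRP1 inactive, had 151 and 145 CPM, NLRX1 57.9 and 60.9 CPM and RIPK1 47.4 and 46.4 CPM. PYCARD (ASC), the adaptor of NLRP3 and AIM2, had 1 and 0 counts, and CASP1, named after its values were seen, 2 and 1. None of the 10 tested was separated by the exact binomial test, beside 8.71% of all genes tested. An unadjusted p under 0.05 in this test was found for 1 of the 10, beside 3293 of all 15530 genes tested.

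**Figure D5:**
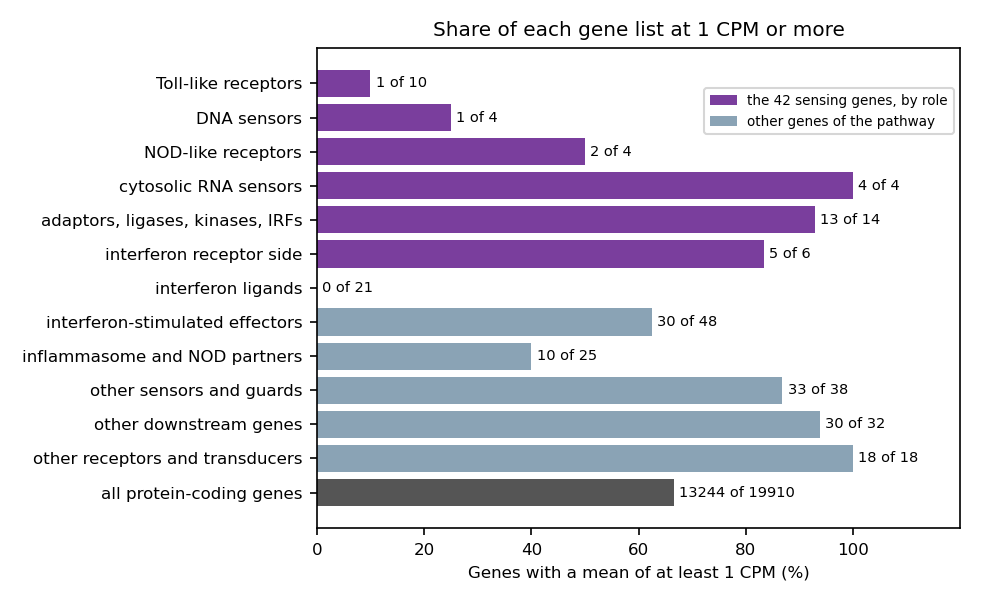
Share (%) of each list whose mean reached 1 CPM, for the 42 sensing genes by role, the 6 lists of other pathway genes and all protein-coding genes, with counts at the bars. The Toll-like receptors (1 of 10) and the interferon genes (0 of 21) have the lowest shares, and all protein-coding genes stand at 66.5%.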

How the data were processed

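The authors deposited whole-number counts per Ensembl gene in 1 table, and CPM in 1 file per sample. Dividing the deposited CPM by the counts gave 1 constant in each library (100% of values whole reads within a tolerance of 1e-06), which stood for library sizes 3.78% and 2.68% above the column totals. STAR 2.7.7a, edgeR and GRCh38 are named in the submitters' processing notes, and no source used here names the counting program or annotation. Separate cultures are not stated in the labels, so a difference between these libraries may be technical. The p-values set it against counting error only and measure no spread between libraries. Without molecular identifiers, intervals and floors cover counting error only.

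Genes were matched by current symbol, and 96.4% of the IDs were in GENCODE 29 (GRCh38), which gave lengths, coordinates, overlaps and the uniqueness of each gene's 50-base stretches. TPM were counts per kilobase of summed exons, scaled over genes with a length. Log2 ratios used CPM + 1. The exact binomial test (2-sided, doubled smaller tail, share set by the deposited library sizes) ran on the 15530 genes whose mean reached 1 CPM, with Benjamini-Hochberg adjustment at 0.05. The test was checked on counts simulated with counting error only, where it recovered 62% of 1.5-fold and 84% of 2-fold changes. Such counts cannot show how it behaves with variation between libraries.

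The 42 genes and the lists were chosen with earlier results of these data known. All 42 genes were named, and of each other list the 3 with the highest mean CPM, with IFNB1, IRF1, TREX1 and PYCARD; a few genes that this rule picks are not reported here. Markers of blood, epithelial, fibroblast, endothelial and HEK293 cells had 6 of 20, 4 of 8, 4 of 8, 2 of 5 and 10 of 10 genes at 1 CPM. Alternatives were other CPM minimums, pseudocounts, scalings, lengths and promoter windows, edgeR 4.0.16 at a dispersion of 0 and leaving out each sample. Software was Python 3.11.15, pandas 2.3.3, scipy 1.17.1, statsmodels 0.14.6 and R 4.3.3.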

Additional observations from a re-analysis of the deposited data

How the results depend on the processing

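The count of 26 genes at 1 CPM stayed within 1.5 times under other minimums, column totals, TMM scaling and each left-out sample (25 without sample 2, 27 without sample 1). The counts of the 6 other lists did so at 0.5 and 2 CPM, with column totals and without each sample. The inflammasome and NOD partners only just did, with 10 of 25 genes at 1 CPM and 15 at 0.5 CPM. That change equals the limit of 1.5 times, so the 40% share of this list depends on the minimum. The numbers of separated genes, 1 of the 42 and 1353 over all, stayed within 1.5 times with column totals, TMM scaling, a 0.5 CPM minimum and no filter. With no filter, 942 genes were separated over all. The edgeR exact test at a dispersion of 0 gave 1 and 1287. Like the main test it covers counting error only, so its result is not an independent check. The median of the 42 genes was 2.74 CPM with column totals and 2.74 CPM with TMM scaling. Their median log2 ratio was 0.0050 with column totals, 0.0079 with TMM scaling, 0.0358 at a minimum of 0.5 CPM and 0.0371 with no filter. The difference in median CpG ratio between genes above and below the minimum was 0.31, and 0.38 with the bases before the start only, 0.32 at 0.5 CPM and 0.34 at 2 CPM. The alternative without the 3 overlapped genes was chosen after seeing the data. No paired analysis was possible because the samples form 1 group. The test between samples needs both, so leaving 1 out gave no value for it. Depth limited the 10 genes with fewer than 3 counts in a sample.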
